A study of Mus musculus with 6 samples.

Results

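The central myelin structural genes described here are 9 mouse genes whose products build or mark the myelin sheath that oligodendrocytes wrap around axons in the central nervous system: Mbp, Mobp, Mag, Mog, Cnp, Cldn11, Opalin, Ugt8a and Ermn. They were taken as a named list and were found by matching each symbol to the Ensembl gene identifier of the deposited tables. All 9 were found among the 35275 genes of the tables, and all 9 were among the 24511 genes that had a read in at least 1 library and were tested. The study sequenced RNA from cells labelled as spinal cord neurons of ICR mice at postnatal day 3, cultured in complete DMEM. The IG group (2 samples) is labelled control and was left without any processing, the NG group (2 samples) was injured mechanically, and the TG group (2 samples) was injured mechanically and incubated with 75% hydrogen. The labels name no allele or transgene, do not say how long after injury the cells were taken, and name no animal, litter or dish of origin for the 2 samples in each group. The p-values below therefore rest on the spread between these samples, which may be technical. In limma, the test behind most of them, that spread is also drawn toward the spread of genes of similar level (3 residual and a median of 5.2 prior degrees of freedom).

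Myelin forms when an oligodendrocyte extends flat membrane sheets that spiral around an axon and then press together as cytoplasm is squeezed out. Basic proteins such as MBP hold the inner faces of the membrane together in compact myelin, while other proteins keep cytoplasmic channels open, seal the spiral with tight junctions, or sit on the innermost and outermost turns. Galactolipids make up much of the membrane itself. In the spinal cord of the mouse, myelination starts around birth and goes on during the first weeks of life. Mobp, Mog and Opalin are used as markers of central oligodendrocytes, whereas Mbp, Mag, Cnp and Ugt8a are also made by Schwann cells, which myelinate peripheral nerves.

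The 6 libraries held between 15749447 and 23911141 reads assigned to genes, so that even Opalin, the gene with the fewest reads of the 9, took at least 0.00420% of the reads of a library. Within each group the library with more reads is called A and the other B, because the deposited group means from which the reads were recovered do not carry the samples' numbers. Transcripts of the mitochondrial genome took 14.2% and 17.2% of reads in NG and between 4.66% and 5.64% in the other 4 libraries. The 10 neuron markers were detected in every library, but Mbp, an oligodendrocyte gene, had the highest normalised read count of all 24511 genes in each IG and TG library and the second highest in each NG library. Marker genes of astrocytes, microglia, Schwann cells, fibroblasts and skeletal muscle were also present, so the libraries labelled neuron held RNA of several cell types. In such mixed RNA, fewer oligodendrocytes and less myelin RNA per oligodendrocyte cannot be told apart.

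To show the sequence next to the start sites of genes that moved by very different amounts, the RefSeq promoter windows (GRCm38.p6, 250 bases before to 50 after the start) are given for the 2 genes with the largest fall in NG, Mag and Cnp, and for 2 of those with the smallest, Mobp and Opalin. They lie at chr7:30914814-30915113 on the minus strand for Mag, chr11:100574689-100574988 on the plus strand for Cnp, chr9:120149492-120149791 on the plus strand for Mobp and chr19:41077064-41077363 on the minus strand for Opalin, and each is written 5′ to 3′ along the gene's own strand. Capitals mark matches on either strand to ACAANG, a core of the sites of SOX factors such as SOX10, or to CTGGNAC, a loose form of the core of MYRF sites. N stands for any base, so not every match need have the form of a site of these factors. Both factors drive oligodendrocyte differentiation. Matches to the motifs did not overlap each other in these windows.
Mag: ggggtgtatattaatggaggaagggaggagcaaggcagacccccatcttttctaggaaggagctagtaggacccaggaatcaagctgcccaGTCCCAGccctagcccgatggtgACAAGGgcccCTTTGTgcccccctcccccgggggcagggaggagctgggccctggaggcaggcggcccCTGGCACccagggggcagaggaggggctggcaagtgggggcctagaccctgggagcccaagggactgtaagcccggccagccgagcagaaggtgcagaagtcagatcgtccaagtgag
Cnp: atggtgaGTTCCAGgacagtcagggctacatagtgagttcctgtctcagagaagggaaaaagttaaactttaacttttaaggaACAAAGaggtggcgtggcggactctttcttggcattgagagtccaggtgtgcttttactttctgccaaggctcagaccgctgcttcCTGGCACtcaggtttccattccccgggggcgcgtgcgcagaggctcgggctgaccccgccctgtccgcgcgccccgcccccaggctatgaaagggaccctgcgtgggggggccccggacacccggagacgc
Mobp: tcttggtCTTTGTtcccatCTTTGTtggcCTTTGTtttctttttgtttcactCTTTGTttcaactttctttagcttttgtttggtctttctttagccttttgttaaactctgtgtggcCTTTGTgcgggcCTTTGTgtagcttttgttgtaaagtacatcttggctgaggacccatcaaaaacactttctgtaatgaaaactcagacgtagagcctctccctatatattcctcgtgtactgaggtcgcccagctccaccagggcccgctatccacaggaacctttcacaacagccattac
Opalin: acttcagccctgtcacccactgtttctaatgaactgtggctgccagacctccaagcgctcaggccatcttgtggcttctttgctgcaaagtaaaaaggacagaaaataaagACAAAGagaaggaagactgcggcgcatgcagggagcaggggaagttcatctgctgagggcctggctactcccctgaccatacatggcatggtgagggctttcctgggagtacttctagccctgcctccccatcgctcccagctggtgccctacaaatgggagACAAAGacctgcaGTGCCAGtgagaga
Of the 9 genes, 8 had a window in the RefSeq table. The Mag window held 2 matches to ACAANG and 2 to CTGGNAC, and the Cnp window held 1 and 2. The Mobp window held 6 matches to ACAANG, all as CTTTGT on the printed strand, and 0 to CTGGNAC, and the Opalin window held 2 and 1. Among the others, Mog had 1 match to each motif, Ermn had 2 to ACAANG alone, and Cldn11 and Ugt8a had neither. Over all 32851 windows of the same length in the table, 41.2% held ACAANG and 19.3% held CTGGNAC. A match here is a description of letters, not of binding.

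The 9 genes together took a large part of each library, and that part was smallest in NG. They held 7.68% (95% Wilson interval 7.67% to 7.69%) and 8.05% (8.04% to 8.07%) of all reads in the IG libraries A and B. In the NG libraries they held 4.91% (4.90% to 4.92%) and 5.33% (5.32% to 5.34%). In the TG libraries they held 9.12% (9.11% to 9.13%) and 9.28% (9.26% to 9.29%). The 3 groups did not overlap, and the intervals cover counting error only. Mbp alone made up between 78.6% and 84.5% of these reads. Without Mbp, the other 8 genes held 1.64% of reads in each IG library, 0.835% and 0.829% in NG, and 1.92% and 1.93% in TG, so the share of the other 8 was, as a ratio, further below IG in NG than that of Mbp, which was 6.04% and 6.41% in IG and 4.08% and 4.50% in NG.

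Mbp and Mobp code for proteins of the compact sheath. Mbp, on chromosome 18, codes for myelin basic protein, which holds the cytoplasmic faces of the membrane together, and the annotation gives it 14 coding transcripts that gene-level reads do not separate. Its normalised reads (reads divided by the size factor of the library) were 1105790 and 1178630 in IG, 800311 and 869065 in NG, and 1392810 and 1415030 in TG. The groups did not overlap, with NG lowest and TG highest. The level in NG was 1.37-fold below IG, and this difference did not pass the test (limma's estimate -0.45 on the log2 scale, SE 0.21, adjusted p = 0.127). The SE depended on the settings of limma. It was 0.09 when genes with a mean under 10 normalised reads were not tested (adjusted p = 0.00269). Without a trend of the prior variance it was 0.11 (adjusted p = 0.0369), and with a pseudocount of 8 it was 0.33 (adjusted p = 0.332). In the authors' deposited table, the same comparison has a log2 fold change of -0.46 and an adjusted p of 0.0047. From NG to TG, Mbp rose by 0.75 on the log2 scale (SE 0.21, adjusted p = 0.0186). That call was lost when reads were scaled to nuclear genes (limma adjusted p = 0.0577) and with a pseudocount of 8 (0.102). It was also lost whenever any 1 library was left out, where the estimate stayed between 0.69 and 0.80.

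Mobp (chromosome 9, 120149707 to 120181484, plus strand, mm10) codes for myelin-associated oligodendrocytic basic protein, a small basic protein of compact central myelin. Its normalised reads were 117880 and 117066 in IG, 95847 and 92440 in NG, and 176416 and 177932 in TG. NG was again lowest and TG highest with no overlap, and the NG libraries kept 80.1% of the IG mean. The difference between NG and IG lay just outside the threshold (limma's estimate -0.32 on the log2 scale, SE 0.11, adjusted p = 0.0504). When genes with a mean under 10 normalised reads were not tested, limma gave an SE of 0.07 (adjusted p = 0.00381). Without a trend of the prior variance the SE was 0.10 (adjusted p = 0.0684). Mobp rose from NG to TG by 0.91 (SE 0.11, adjusted p = 0.0002) and was also higher in TG than in IG, by 0.59 (adjusted p = 0.0116). Mobp had the smallest change of the 9 between NG and IG.

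Mag, Mog and Opalin code for membrane glycoproteins outside the compact layers. Mag (chromosome 7, 30899176 to 30914873, minus strand) codes for myelin-associated glycoprotein, an adhesion molecule of the innermost turn that binds the axon. Its normalised reads were 29632 and 32050 in IG, 7885 and 9148 in NG, and 30305 and 31569 in TG. Both NG libraries were far below the other 4, and the IG and TG libraries overlapped. Mag fell 3.63-fold from IG to NG (limma's estimate -1.86 on the log2 scale, SE 0.10, adjusted p = 4.88e-06), the largest change of the 9, and rose by 1.86 from NG to TG (adjusted p = 2.25e-06). The difference between TG and IG was 0.01 on the log2 scale (SE 0.10, adjusted p = 1).

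Mog (chromosome 17, 37010743 to 37023398, minus strand) codes for myelin oligodendrocyte glycoprotein, which sits on the outermost turn of central myelin. Its normalised reads were 15729 and 15602 in IG, 7867 and 7380 in NG, and 19574 and 20166 in TG, with no overlap between groups. Mog fell 2.06-fold from IG to NG (limma's estimate -1.04 on the log2 scale, SE 0.08, adjusted p = 1.96e-05) and rose by 1.38 from NG to TG (adjusted p = 2.71e-06). Opalin (chromosome 19, 41061710 to 41077113, minus strand) codes for a transmembrane sialoglycoprotein of mature oligodendrocytes. With 1172 and 1155 normalised reads in IG, 831 and 811 in NG, and 1741 and 1816 in TG, it was the gene of lowest level, and its groups did not overlap. The fall of Opalin in NG was small (1.42-fold, limma's estimate -0.50, SE 0.07, adjusted p = 0.00082), and its level in TG exceeded that of NG by 1.11 (adjusted p = 6.89e-06) and that of IG by 0.61 (adjusted p = 0.00148).

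The remaining 4 genes serve the cytoplasmic channels, the tight junctions, the lipids and the cytoskeleton of the sheath. Cnp (chromosome 11, 100574904 to 100591729, plus strand) codes for a phosphodiesterase that keeps cytoplasm-filled channels of the myelin open. Its normalised reads were 68000 and 69926 in IG, 22797 and 24129 in NG, and 68544 and 68773 in TG. Cnp fell 2.94-fold in NG (limma's estimate -1.56 on the log2 scale, SE 0.09, adjusted p = 7.42e-06) and rose by 1.55 from NG to TG (adjusted p = 3.77e-06), and the IG and TG libraries overlapped. Of its exonic bases, 154 (4.23%) overlap exons of Dnajc7 on the opposite strand, and their reads could not be told apart here if, as its name in the labels implies, the library kit does not mark strand.

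Cldn11 (chromosome 3, 31149920 to 31164324, plus strand) codes for claudin 11, the tight junction protein that seals the turns of central myelin. Its normalised reads were 36407 and 38551 in IG, 13116 and 13352 in NG, and 40749 and 41521 in TG. Cldn11 fell 2.83-fold in NG (limma's estimate -1.50 on the log2 scale, SE 0.08, adjusted p = 5.79e-06) and rose by 1.64 from NG to TG (adjusted p = 1.94e-06). Ugt8a (chromosome 3, 125865271 to 125938619, minus strand) codes for the enzyme that makes galactosylceramide, a main lipid of myelin. It had 28334 and 23663 normalised reads in IG, 13345 and 10787 in NG, and 30051 and 26364 in TG, the widest relative spread of the 9 genes within each group. Ugt8a fell 2.16-fold in NG (limma's estimate -1.11, SE 0.13, adjusted p = 0.000257), rose by 1.23 from NG to TG (adjusted p = 9.88e-05), and overlapped between TG and IG.

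Ermn (chromosome 2, 58045113 to 58052864, minus strand) codes for ermin, a cytoskeletal protein of myelinating oligodendrocytes. Its normalised reads were 3741 and 3489 in IG, 2166 and 1881 in NG, and 4733 and 4460 in TG, with no overlap between groups. Ermn fell 1.79-fold in NG (limma's estimate -0.84 on the log2 scale, SE 0.09, adjusted p = 0.000133) and rose by 1.19 from NG to TG (adjusted p = 1.28e-05). Of its exonic bases, 237 (6.52%) overlap exons of Galnt5 on the opposite strand, and 79 exonic bases of Mobp overlap a neighbouring transcript on the same strand.

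**Figure D1:**
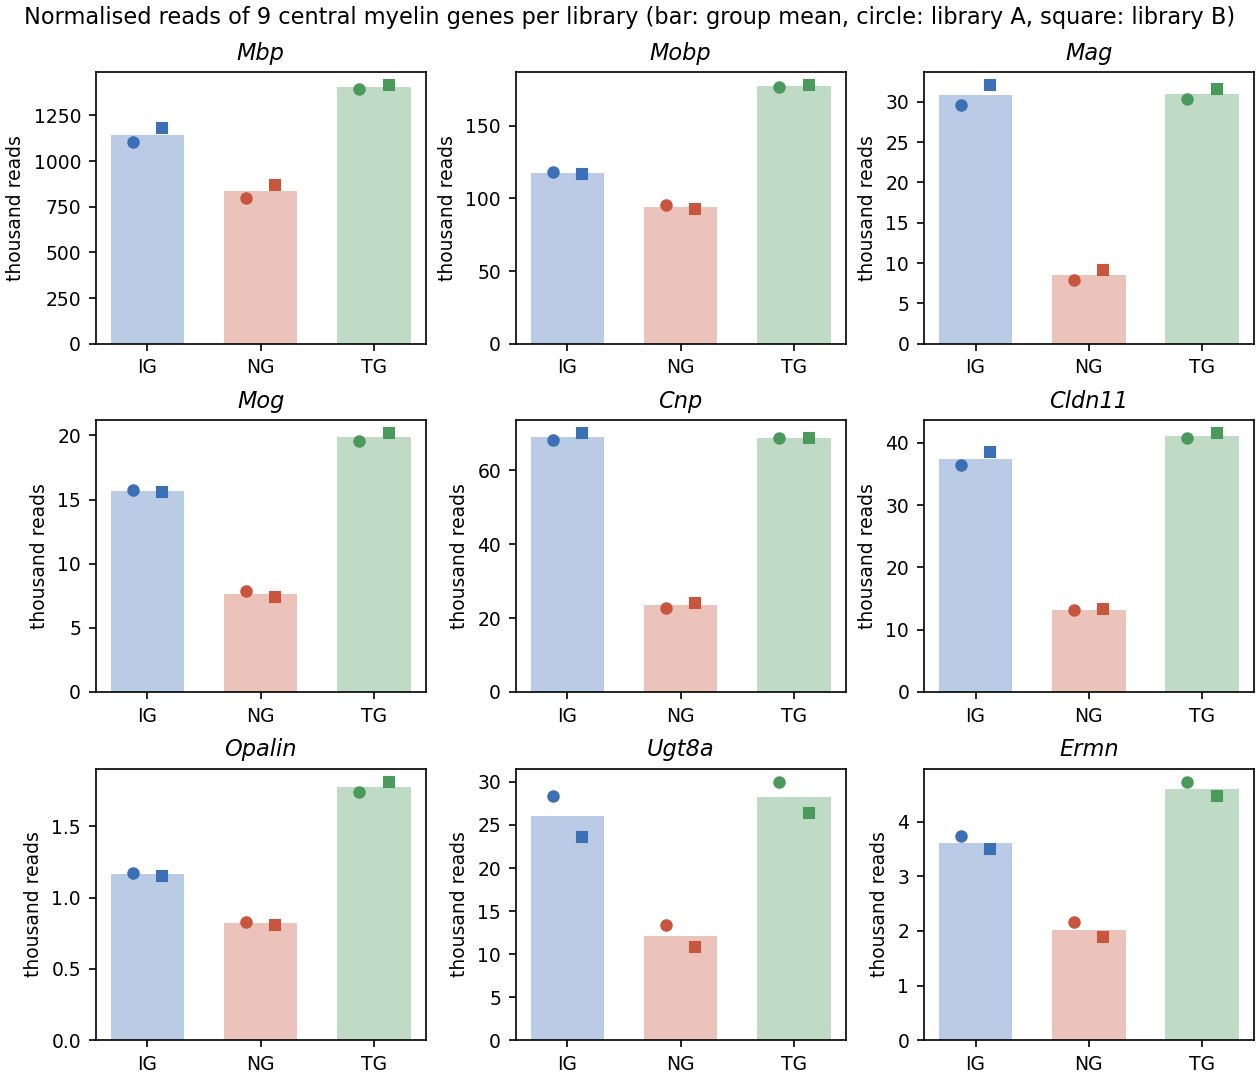
Normalised reads (unit of each linear axis: 1000 reads, from 0) of each of the 9 genes in the IG, NG and TG groups, with bars for the mean of 2 libraries, circles for library A and squares for library B. The 2 NG libraries are the lowest in every panel, and IG and TG points overlap for Mag, Cnp and Ugt8a.

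Counted together, the injured cells of the NG group had lower myelin transcripts than the IG group. Between NG and IG, 7 of the 9 genes were called lower (Mag, Cnp, Cldn11, Ugt8a, Mog, Ermn and Opalin) and 0 higher, against 20.4% of all tested genes called lower and 19.6% called higher. Mbp and Mobp also lay below IG in NG without overlap, but were not called. The share of all tested genes without overlap was not counted, so a lack of overlap, here and above, only describes the libraries. The median log2 fold change of the 9 was -1.04, and that of all tested genes was 0.00. The called falls ranged from 1.42-fold for Opalin to 3.63-fold for Mag. These 7 calls held when any 1 library was left out. When genes with a mean under 10 normalised reads were not tested, all 9 were called lower, Mbp with an adjusted p of 0.00269 and Mobp with 0.00381. All 9 were also called lower when the deeper and the shallower library of each group entered the limma fit as a block (4.61e-06 and 1.02e-05), a fit chosen after the data were seen. Over all tested genes, that fit called 12022 in either direction, against 9816 without the block. Skeletal muscle and fibroblast markers moved the opposite way in the same comparison: the summed level of 7 muscle markers went from 9032 and 9296 normalised reads in IG to 82765 and 87006 in NG, and that of 6 fibroblast markers from 37949 and 38501 to 112541 and 113786. Their part in the fall of the myelin genes was not tested.

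With hydrogen, all 9 genes rose from NG to TG, against 22.2% of all tested genes called higher and 23.1% called lower. The median log2 fold change was 1.23 over the 9 genes and 0.00 over all tested genes, with a range from 0.75 for Mbp to 1.86 for Mag. Leaving out any 1 library left 8 of the 9 called, Mbp being the one lost. The muscle and fibroblast markers fell back in the same comparison, to summed levels of 12288 and 12104 and of 17552 and 17262 in TG, and the share of mitochondrial transcripts was lower too. Their part in the rise was not tested. Because NG enters both comparisons, the fall from IG and the rise to TG are not independent measurements of it.

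Between TG and IG, the 2 groups with the higher levels, the 9 genes split. Mobp, Mog, Opalin and Ermn were higher in TG than in IG, by 0.34 to 0.61 on the log2 scale (limma adjusted p of 0.0116, 0.0233, 0.00148 and 0.0428), and 0 of the 9 were lower. Over all tested genes, 11.3% were called in either direction, 4.16% higher and 7.16% lower. The other 5 genes did not pass the test: the log2 difference was 0.30 for Mbp (SE 0.21), 0.13 for Cldn11 (SE 0.08), 0.12 for Ugt8a (SE 0.13), 0.01 for Mag (SE 0.10) and -0.01 for Cnp (SE 0.09). These 4 calls depended on the fit. Mog and Ermn were not called when reads were scaled to nuclear genes (adjusted p of 0.0667 and 0.112) or without a trend of the prior variance (0.156 and 0.229). With any 1 IG or TG library left out, limma called 0 of the 9 (3 to 4 had an unadjusted p under 0.05), and with either NG library left out it called Opalin alone. With voom weights 5 were called, as in the authors' deposited table, and with a block of deeper and shallower libraries 7 were called, Mag and Cnp being the exceptions. Over all tested genes, the fit with that block called 5862 in either direction, against 2776 without it.

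The Schwann cell markers differed strongly between these same groups. The summed level of 10 Schwann cell and peripheral myelin genes was 143078 and 147531 normalised reads in IG, 124341 and 123315 in NG, and 35811 and 35765 in TG. All 10 were lower in TG than in IG, with a median log2 fold change of -1.51. Of the 5 central myelin genes that did not pass the test between TG and IG, Mbp, Mag, Cnp and Ugt8a are also made by Schwann cells. The other is Cldn11, described above as sealing the turns of central myelin. The grouping depended on the fit, since Mbp was called higher in TG with voom weights (limma adjusted p = 0.00163). How much the Schwann cell RNA adds to the levels of these genes was not tested.

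**Figure D2:**
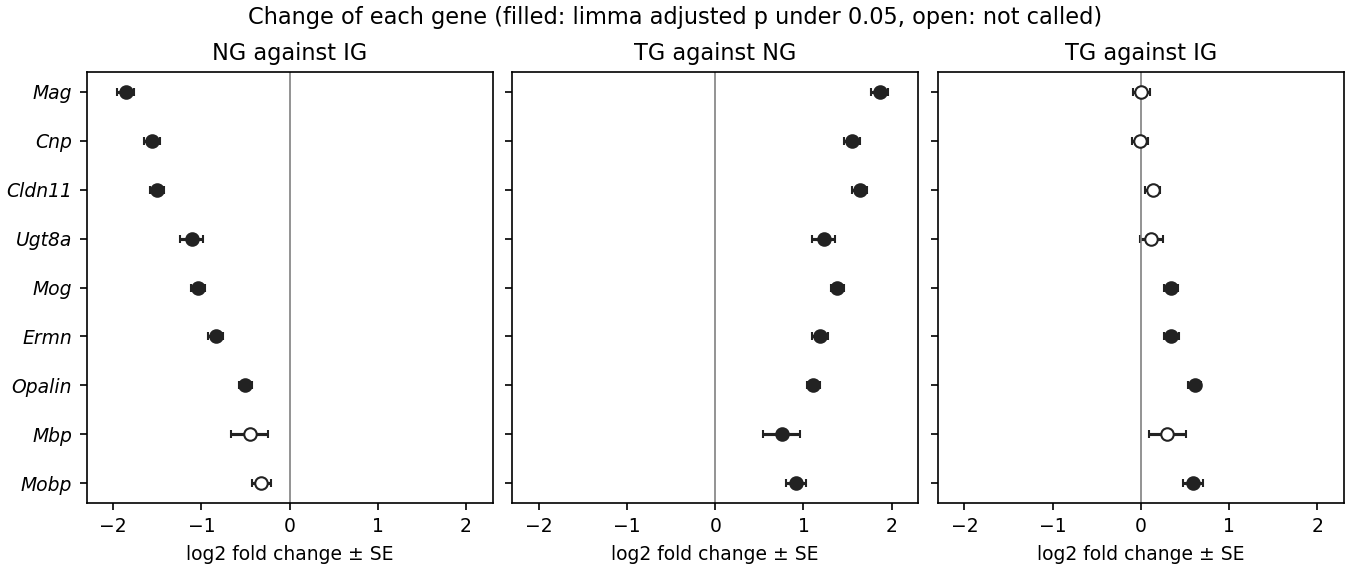
Log2 fold change with its standard error (x axis) of each of the 9 genes (y axis) in the 3 comparisons, from limma over all 6 libraries, with filled circles for an adjusted p under 0.05. The fall in NG runs from -1.86 for Mag to -0.32 for Mobp, all 9 circles are filled and to the right of 0 in TG against NG, and 4 are filled in TG against IG.

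The 9 genes did not move in proportion to each other. Their balance was measured within each library as the log2 ratio of a gene to Mbp, a quantity that no scaling between libraries can change. For Mag this ratio was -5.22 and -5.20 in IG, -6.67 and -6.57 in NG, and -5.52 and -5.49 in TG. The NG libraries were thus lowest, and the mean of the 2 NG libraries differed from that of the other 4 by -1.26. The same difference was -0.97 for Cldn11, -0.95 for Cnp, -0.61 for Mog, -0.57 for Ugt8a and -0.41 for Ermn, with both NG libraries below all other 4 for each of these genes. For Opalin it was -0.21 and for Mobp -0.01, and here 1 NG library of Opalin and both of Mobp lay within the range of the other 4. This comparison was chosen after the values were seen. In an exact two-sided permutation test of the 2 NG libraries against the other 4, the smallest p that the design allows is 0.133, and the 6 genes from Mag to Ermn reached it (adjusted over 8 comparisons, p = 0.178). Opalin had p = 0.267 and Mobp p = 0.933 in the same exact test.

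The balance in TG also differed from that in IG for some genes. In TG the log2 ratio to Mbp was below IG for Mag (-5.50 against -5.21), Cnp (-4.35 against -4.05) and Cldn11 (-5.09 against -4.93), with both TG libraries below both IG libraries. It was above IG for Mobp (-2.99 against -3.28) and Opalin (-9.62 against -9.94), again with no overlap. For Ermn, Ugt8a and Mog the TG and IG libraries overlapped. With 2 libraries in each group these differences were not tested.

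**Figure D3:**
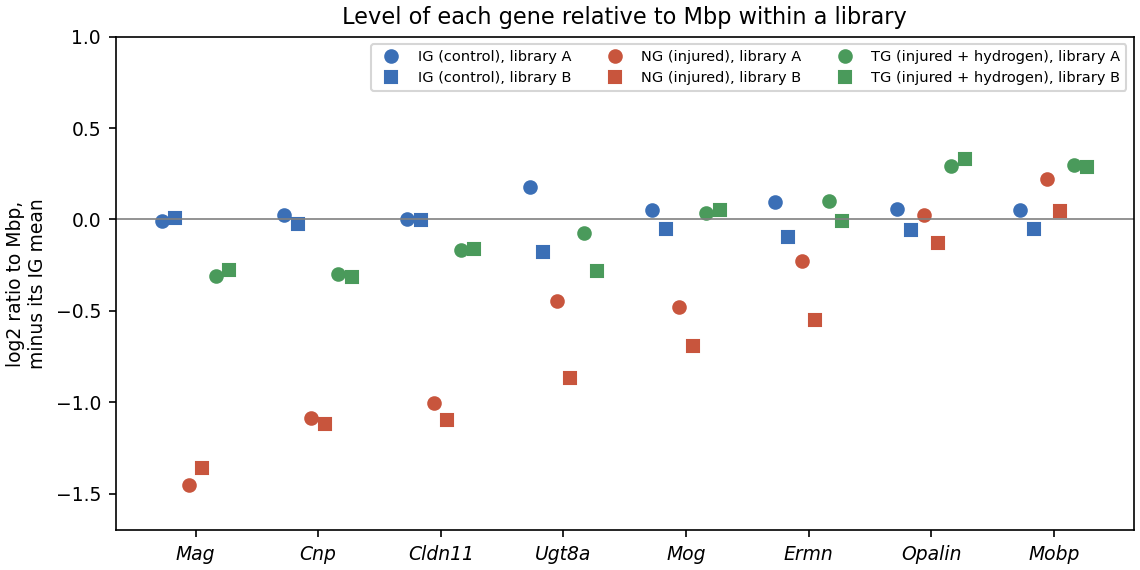
Log2 ratio of each of the other 8 genes to Mbp within a library, after subtraction of the IG mean of that gene (y axis), with 1 point per library coloured by group. For Mag the mean log2 ratio is -6.62 in NG and -5.21 in IG, and for Opalin it is -9.99 in NG and -9.94 in IG.

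Levels can be compared between genes only per length. Per kilobase of merged exons, the mean level in IG was 134870 normalised reads for Mbp, followed by Cldn11 (20042), Cnp (18951), Mobp (17152), Mog (9193), Mag (7574), Ugt8a (5732), Ermn (995) and Opalin (395). The order changed in NG, where Mobp (13746) stood above Cldn11 (7077) and Cnp (6448), and Ugt8a (2660) stood above Mag (2091). In TG, Mobp (25869) also stood above Cldn11 (21997) and Cnp (18867), while Mag (7597) was again above Ugt8a (6219). No 2 neighbours in these orders overlapped between their 2 libraries. The order depended on the length used. Per kilobase of the longest coding transcript, Mbp was first, Ermn eighth and Opalin ninth in all 3 groups as before, but Mobp, Cnp and Cldn11 followed Mbp in that order in each group. By that length Mag stood above Mog in IG and TG, and in NG Mag (3499) stood above Ugt8a (3207) with overlapping libraries.

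Among the 12305 other genes with a mean of at least 100 normalised reads, the 10 whose pattern across the 6 libraries was most like the mean of the 9 genes were Oprl1, Cds1, Rab6b, Anks1b, Ppm1f, Phactr1, Zcchc18, Atp2b2, Adar and Sept3. Their Pearson r ran from 0.99995 for Oprl1 to 0.99933 for Sept3. It was taken on log2 of normalised reads plus 1, with each of the 9 genes centred and divided by its SD before averaging. Oprl1 had 635 and 622 normalised reads in IG, 240.5 and 235.2 in NG, and 904 and 892 in TG. Such high values were common, since 528 genes (4.29%) had an r above 0.99, and the 6 points form 3 pairs that share a group. Of the 9 genes themselves, Mog had the highest r to their mean (0.999) and Mobp the lowest (0.908). Each of the 9 is part of that mean, which raises its r, so these values are not comparable with those of the other genes.

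Other proteins of the myelin membrane and sheath moved with the 9 genes for the most part. Levels of the genes named from here on are means of 2 libraries, whose SD had a median of 5.34% of the mean and a highest value of 35.5% (Sox10 in NG) over the 3 genes of highest level in each list and group. Of 20 such genes, 16 fell and 2 rose between NG and IG (median log2 fold change -0.70), 16 rose and 3 fell between TG and NG (0.87), and 4 were higher and 2 lower in TG than in IG (0.07). Mal, a raft proteolipid of myelin, went from 36958 normalised reads in IG to 22623 in NG and 40874 in TG, and Tspan2, a tetraspanin of oligodendrocytes, from 14448 to 4916 and 19804. The 2 genes that rose in NG were Cryab, a small heat shock protein, and Car2, carbonic anhydrase 2, and both fell in TG against NG together with Cd9, a tetraspanin of many cell types.

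Enzymes of myelin lipid synthesis moved together. All 12 fell between NG and IG (median log2 fold change -0.94), 11 rose and 0 fell between TG and NG (0.79), and limma called 0 of 12 between TG and IG (0.03). In that last comparison 3 had an unadjusted p under 0.05, and of the other fits run, the one with a block of deeper and shallower libraries made 3 calls and the rest 0. Hmgcs1, an enzyme of sterol synthesis, went from 32583 normalised reads in IG to 22927 in NG and 33088 in TG. Fa2h, which hydroxylates the fatty acids of myelin galactolipids, went from 9724 to 3541 and 9731.

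Most transcription factors of the lineage moved in the same directions. Of 10 factors, 9 fell and 0 rose in NG (median log2 fold change -1.27), 9 rose and 1 fell from NG to TG (1.04), and 3 were lower and 0 higher in TG than in IG (-0.32). Myrf, the factor that switches on myelin genes and whose motif was searched above, went from 5210 normalised reads in IG to 1068 in NG and 5764 in TG, a log2 fold change of -2.29 between NG and IG that exceeds that of each of the 9 genes. Olig1 went from 11794 to 6122 and 12002, and Sox10, which Schwann cells also make, from 5769 to 2073 and 3935. The factor that fell from NG to TG was Tcf7l2, a factor of newly formed oligodendrocytes that is also counted in the list of that stage.

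Most precursor markers were lower in TG than in IG, unlike the 9 myelin genes, of which none was called lower there. This was not particular to precursor markers. All 6 fibroblast markers (median log2 fold change -1.12) and all 10 Schwann cell markers (-1.51) were lower in the same comparison. How far RNA of other cell types enters the precursor markers was not tested. Of 9 markers of oligodendrocyte precursors, 7 fell and 0 rose in NG (median log2 fold change -1.13), 4 rose and 2 fell from NG to TG (0.42), and 7 were lower and 0 higher in TG than in IG (-0.72). Their summed level was 16733 and 16323 normalised reads in IG, 5997 and 5789 in NG, and 10660 and 10223 in TG. Gpr17, a receptor of late precursors, went from 6787 to 1023 and 4052, while Pdgfra, the growth factor receptor of early precursors, went from 1569 to 840 and 941. Of 8 markers of newly formed oligodendrocytes, 5 fell and 0 rose in NG (-0.71), 5 rose and 2 fell from NG to TG (0.72), and 2 were lower and 0 higher in TG than in IG (-0.18). Enpp6, an early marker of myelinating cells, went from 2396 to 521 and 2241, and Bcas1 from 13377 to 9823 and 14155.

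Neuron markers and most astrocyte markers were also lower in NG. All 10 neuron markers fell in NG (median log2 fold change -0.86) and all 10 rose from NG to TG (1.12), with 3 higher and 0 lower in TG than in IG (0.32). Nefm, a neurofilament subunit, went from 18713 normalised reads in IG to 8680 in NG and 19010 in TG. Of 8 astrocyte markers, 7 fell and 1 rose in NG (-0.73), 6 rose and 0 fell from NG to TG (0.48), and 0 were higher and 1 lower in TG than in IG (-0.24). Of 8 microglia markers, 2 rose and 2 fell in NG (-0.19), 2 rose and 3 fell from NG to TG (0.03), and limma called 0 in TG against IG (-0.18), where 1 had an unadjusted p under 0.05 and the other fits run gave between 0 and 3 calls. Schwann cell markers in NG were mixed, with 2 higher and 3 lower than in IG (-0.04), and from NG to TG 8 fell and 0 rose (-1.69).

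Fibroblast and muscle genes formed the opposite pattern. All 6 fibroblast markers rose in NG (median log2 fold change 1.58), fell from NG to TG (-2.67) and were lower in TG than in IG (-1.12). Of 7 muscle markers, 6 rose and 0 fell in NG (3.11), 6 fell and 0 rose from NG to TG (-2.89), and 3 were higher and 0 lower in TG than in IG (-0.03, opposite in sign to those 3 calls). Acta1, skeletal muscle actin, went from 4228 normalised reads in IG to 39683 in NG and 5942 in TG. Myh3 and Myh8, the embryonic and perinatal myosins, had between 0.809 and 44.0 normalised reads per library. The part of this tissue RNA in the levels of the myelin genes was not tested.

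**Figure D4:**
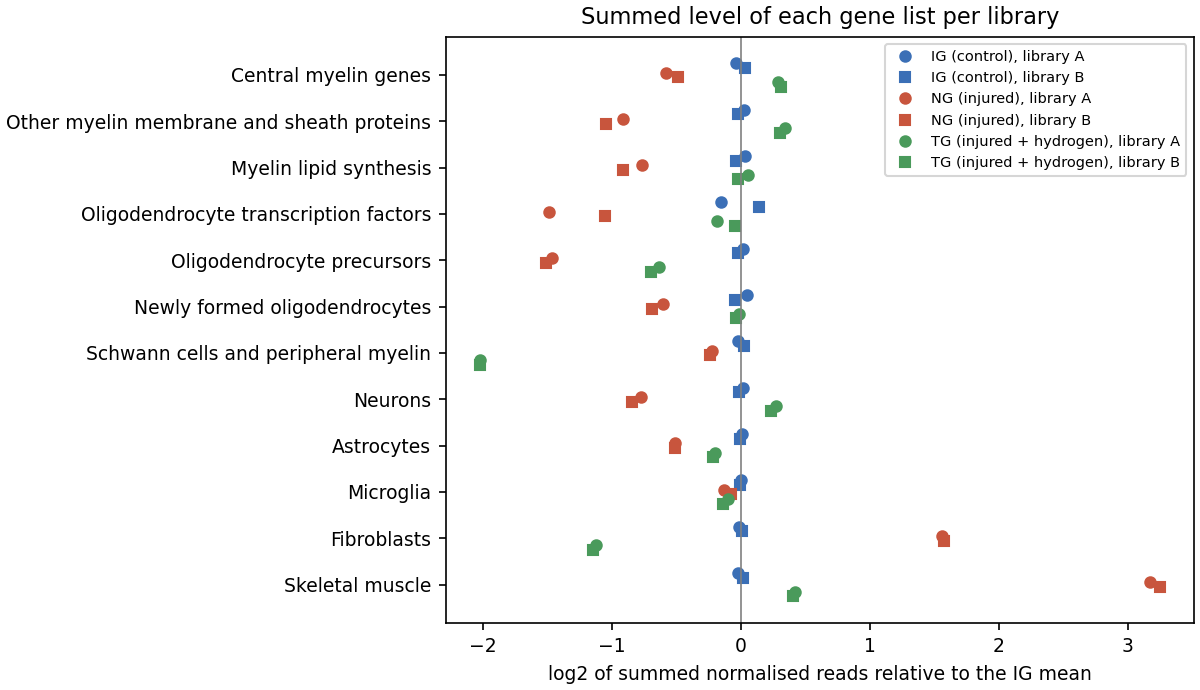
Log2 of the summed normalised reads of each gene list relative to its IG mean (x axis), with 1 point per library, circles for library A and squares for library B, coloured by group. NG points lie left of 0 for the central myelin genes, the other myelin and oligodendrocyte lists, neurons and astrocytes, and right of 0 for fibroblasts and skeletal muscle, and TG points lie furthest left for Schwann cell markers.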

How the data were processed

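RNA-seq of 6 samples in 3 groups of 2 was analysed. Per the submitters' processing notes, reads were aligned with Bowtie2 2.0.6 to mm10 and counted with HTSeq 0.6.1. The authors deposited 3 tables of pairwise comparisons over 35275 genes, each with a normalised signal per group (the mean of reads divided by size factors), a log2 fold change, and a p-value with its adjusted value. Each group occurs in 2 tables with different size factors, and these were solved for the reads of its 2 libraries. All values came out whole (100% of 35275 genes per group, largest distance from a whole number 1.0e-05, tolerance 0.001). The libraries cannot be tied to sample numbers, and the 2 libraries of each group were not 1 library deposited again, since their counts differed beyond counting error.

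Reads were divided by median-of-ratios size factors over 6 libraries, and log2 of normalised reads plus 1 was tested with limma 3.58.1 in R 4.3.3 (empirical Bayes with trend, 1 fit over 6 libraries, 3 residual degrees of freedom, two-sided, Benjamini-Hochberg adjusted p under 0.05 over 24511 genes). Fold changes are on that scale, which understates changes of low genes. The code was tested on simulated data. No negative binomial count model was run on the recovered reads, and voom weights on those reads were an alternative (10021, 11192 and 3055 genes called in NG against IG, TG against NG and TG against IG, where the fit above called 9816, 11119 and 2776). Gene positions and lengths are from GENCODE M21 (mm10). Named genes are the 9 genes, the 3 of highest mean level in each list (with others named after their values were seen, to account for exceptions), and the 10 most alike in Pearson r. Values of some list genes that this rule names are not reported here. The genes and lists were chosen with earlier results of these data known. Lhfpl3, a precursor marker, was not matched to the tables. Alternatives were other scalings, pseudocounts and filters, voom weights, fits over 4 libraries, leaving out each library, and, added after the data were seen, a block of deeper and shallower libraries. No explanation of a difference was tested.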

Additional observations from a re-analysis of the deposited data

How the results depend on the processing

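The fall of 7 genes between NG and IG and the rise of 9 between TG and NG stayed within 7 to 9 and 8 to 9 calls under all alternatives run, including without any 1 library. The 4 calls between TG and IG did not: the count was 2 with scaling to nuclear gene reads, 2 without a trend of the prior variance and 0 to 1 without any 1 library; the cause was not tested, apart from the smaller number of libraries in the last. No direction of a called gene reversed. Mbp was also called lower in NG without the trend (adjusted p = 0.0369) and with voom weights (1.9e-05), and Mobp with a pseudocount of 0.5 (0.0451) and voom weights (0.000212). Mbp was called higher in TG than in IG with voom weights (0.00163) and in the authors' deposited table (0.0386). Scaling to nuclear gene reads moved the median log2 fold change of 16340 genes (mean of at least 10 normalised reads) between TG and NG from 0.01 to -0.15, and that of Mbp from 0.75 to 0.60. Without mitochondrial reads in the total, the 9 genes held 8.28% of reads in IG, 6.07% in NG and 9.72% in TG. Between the 2 libraries of a group, chi-square per gene was 5.40 to 17.3, above counting error, so more depth would not remove that spread. No paired analysis was possible because the deposited means carry no replicate numbers. The deeper libraries A did deviate together (r of the A minus B differences between groups 0.20 to 0.36 over 16340 genes). A block of deeper and shallower libraries, chosen after the data were seen, left 2 residual degrees of freedom. It gave 9, 9 and 7 calls in NG against IG, TG against NG and TG against IG. Over all genes it gave 12022, 13033 and 5862 calls, in place of 9816, 11119 and 2776. Depth orders the libraries here and no label pairs them.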
